A study of Mus musculus with 90 samples.

Results

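Collagens, laminins and integrins were followed in 2 mouse tumour cell lines under interferon gamma (IFNγ), YUMM2.1 melanoma cells and CT26 colon carcinoma cells. Members were the genes whose symbol is that of a collagen chain (Col, a number, a, a number), a laminin chain (Lama, Lamb or Lamc with a number) or an integrin subunit (Itga or Itgb with a number or a single letter), and which had at least 90 counts summed over the 90 samples. Of 53697 genes in the table, 80 had such a symbol and 37 met the count minimum, namely 17 collagen, 6 laminin and 14 integrin genes. Of the other 43 genes, 7 had no count at all, and just under the minimum lay Lamb3 with 80 counts and Itgb4 with 69, whereas the members nearest above it were Col12a1 with 104 and Col28a1 with 138.

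RNA was counted from the 3′ end of transcripts in 15 groups of 3 samples per line. Control cells received bovine serum albumin (0 IU/mL IFNγ) and were collected at 0, 1, 2 and 3 weeks. Naive cells, with no earlier exposure, received 50 IU/mL IFNγ for 2 h or 24 h at 0 weeks, and chronic cells were kept in 50 IU/mL IFNγ for 1, 2 or 3 weeks and collected either without rechallenge or 2 h or 24 h after fresh IFNγ. Cells of every group were plated 48 h before collection, and no group carries a genetic change. Each line is a single line, so a difference between them is a difference between these lines and not between melanoma and colon carcinoma.

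Collagens are secreted trimers that form fibrils (types I, III and V), the network of basement membranes (type IV) and beaded filaments (type VI). Laminins, trimers of an alpha, a beta and a gamma chain, are the other main scaffold of basement membranes. Integrins are cell-surface dimers of an alpha and a beta subunit that bind these matrix proteins, and a subunit reaches the surface only with its partner; tumour cells use them to attach, migrate and receive survival signals.

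The YUMM2.1 libraries held 274719 to 3161276 counts each (median 1403265), and the CT26 libraries 295157 to 2205285 (median 1318011). Replicate 3 of YUMM2.1 at 3 weeks of IFNγ without rechallenge, and replicate 3 of CT26 at 1 and at 3 weeks of IFNγ without rechallenge, held under 25% of their line's median. Gbp2, an interferon-induced guanylate-binding protein gene, reached at most 9.05 CPM (a gene's count scaled to a common library size) in the 12 YUMM2.1 control samples and 8.63 CPM in the 12 of CT26, and lay at 17.4 CPM or above in every sample given IFNγ. Fresh IFNγ for 24 h left higher Gbp2 at 1 and 2 weeks, but not at 3 weeks. In YUMM2.1, Gbp2 went from 34.8 to 79.0 CPM without rechallenge to 750 to 853 at 24 h after 1 week, and from 180 to 212 to 600 to 758 after 2 weeks, whereas at 3 weeks the samples held 95.9 to 118 CPM without and 95.9 to 100.2 with it. In CT26 the ranges were 17.4 to 40.5 and 341 to 484 CPM at 1 week, 76.8 to 82.6 and 445 to 490 at 2 weeks, and an overlapping 239 to 266 and 254 to 309 at 3 weeks. Gbp2 therefore does not show the rechallenge in the libraries labelled 3 weeks with 24 h of rechallenge. Untreated YUMM2.1 cells held Sox10 at a mean of 22.0 CPM and S100b at 87.6 CPM, but Tyrp1 and Mlana had no count. Of the 9 melanoma markers, 5 reached a mean of 1 CPM in YUMM2.1 and 4 in CT26. Mitf and Dct were higher in CT26 (each 2.60 CPM) than in YUMM2.1 (1.19 and 1.17 CPM). Untreated CT26 cells held Krt20 at 59.9 CPM and Krt18 at 19.0 CPM, but Epcam, Cdh1, Vil1, Krt19 and Lgals4 had no count there. Only these 2 keratins of the 9 colon markers reached a mean of 1 CPM in CT26. The summed melanoma markers lay between 86.2 and 153 CPM in untreated YUMM2.1 and between 3.86 and 14.0 CPM in untreated CT26, and the colon markers between 0 and 1.45 and between 65.5 and 87.6 CPM. Of the 4 endothelial markers, Pecam1 alone reached 1 CPM, with means of 344 CPM in YUMM2.1 cells and 340.1 CPM in CT26 cells. Of the fibroblast markers, 1 of 6 reached a mean of 1 CPM in each line, and the summed list lay between 1.10 and 5.93 CPM in untreated YUMM2.1 samples and between 4.03 and 11.8 CPM in untreated CT26 samples.

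Promoters are shown for 4 members that the comparisons turn on: Itga5 and Lamb1, which were higher in both lines in 1 of the comparisons, Itga3, which was higher in chronic CT26 cells, and Col6a1, which was lower in chronic YUMM2.1 cells. Each is the 250 bases before the RefSeq transcription start (build GRCm38.p6), written 5′ to 3′ on the gene's own strand, and capitals mark the motifs found. Itga5 lies on the minus strand (window chr15:103366792-103367041), Lamb1 on the plus strand (chr12:31265043-31265292), Itga3 on the minus strand (chr11:95076715-95076964) and Col6a1 on the minus strand (chr10:76726045-76726294). The genes span chr15:103344286-103366763, chr12:31265234-31329644, chr11:95044474-95076801 and chr10:76708792-76726168 in the GENCODE annotation of the same assembly. The last bases of the Lamb1, Itga3 and Col6a1 windows therefore lie inside the annotated gene.
Itga5: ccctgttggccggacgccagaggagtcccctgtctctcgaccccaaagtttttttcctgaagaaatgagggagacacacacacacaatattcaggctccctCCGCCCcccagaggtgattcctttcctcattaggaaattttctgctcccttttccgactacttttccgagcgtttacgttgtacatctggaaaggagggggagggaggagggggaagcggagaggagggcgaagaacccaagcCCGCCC
Lamb1: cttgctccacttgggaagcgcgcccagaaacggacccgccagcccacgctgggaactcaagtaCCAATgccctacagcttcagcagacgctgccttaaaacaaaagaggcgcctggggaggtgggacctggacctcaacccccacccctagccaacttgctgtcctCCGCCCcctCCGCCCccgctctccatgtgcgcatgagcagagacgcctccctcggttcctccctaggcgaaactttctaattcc
Itga3: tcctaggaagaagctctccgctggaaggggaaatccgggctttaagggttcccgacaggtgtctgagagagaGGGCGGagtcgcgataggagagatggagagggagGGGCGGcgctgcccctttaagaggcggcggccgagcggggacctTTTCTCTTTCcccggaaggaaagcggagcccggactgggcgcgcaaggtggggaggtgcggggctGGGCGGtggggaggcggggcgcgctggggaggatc
Col6a1: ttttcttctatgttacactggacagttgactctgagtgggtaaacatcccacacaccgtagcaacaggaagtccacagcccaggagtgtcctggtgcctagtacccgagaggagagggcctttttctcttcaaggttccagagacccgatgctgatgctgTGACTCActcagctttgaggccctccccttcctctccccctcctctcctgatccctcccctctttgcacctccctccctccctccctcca

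The capitals were GC boxes (GGGCGG) in Itga5, Lamb1 and Itga3, a CCAAT box (CCAAT) in Lamb1, the core of an interferon-stimulated response element (GAAANNGAAA) in Itga3, and an AP-1 motif (TGANTCA) in Col6a1. The AP-1 motif of Col6a1 and the last GC box of Itga3 lie inside the annotated gene. All motifs were searched on both strands and share no base in these windows. Of 37 members, 28 had a promoter in the table of 32851 promoters. A GC box stood in 16 of the 28, against 32.7% of all promoters, and a CCAAT box in 10, against 33.8%. The interferon-related motifs stood near their share of all promoters: the response element core in Itga3 alone (3.57% of the 28, against 2.98%) and the gamma-activated site (TTCNNNGAA) in Col28a1 and Lamb2 (7.14%, against 7.02%). An AP-1 motif stood in Col6a1 alone (6.75% of all promoters), and a CArG box in none of the 28 (1.47% of all promoters). A match of letters is a description and not a site of binding.

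The first comparison asked which of these genes each line used without IFNγ, in the 12 untreated samples per line (4 groups of 3, at 0 to 3 weeks). Levels are CPM after scaling the libraries by TMM. With 3′ counting a transcript is read at its end, so CPM were compared between genes without division by transcript length. The 37 genes summed to a mean of 845 CPM in untreated YUMM2.1 cells and to 296 CPM in untreated CT26 cells. In YUMM2.1, the highest were Col5a2, a fibril collagen chain (115 ± 14.5 CPM, SD, n = 12), Itgb1, the beta subunit shared by most matrix-binding integrins (99.98 ± 9.77), and Col18a1, a basement membrane collagen from which endostatin is cut (96.5 ± 11.9). The samples of neighbours in this order overlapped, with Col5a2 between 99.1 and 140.2 CPM and Col18a1 between 77.6 and 118.9 CPM. Next came the laminin receptor subunit Itga6 (66.2 ± 10.6 CPM), the fibril collagen Col3a1 (63.9 ± 11.5), the laminin chain Lamb1 (47.9 ± 6.18), the basement membrane collagen Col4a1 (40.9 ± 7.53), the short-chain collagen Col8a1 (35.1 ± 5.80), the fibronectin and VCAM1 receptor subunit Itga4 (33.7 ± 5.07) and the laminin chain Lama4 (32.6 ± 5.74).

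In CT26 the order was another one. Col1a2, the alpha-2 chain of type I collagen, was highest (79.3 ± 29.2 CPM, SD, n = 12), with samples between 42.6 and 152 CPM. Itgb1 came next (54.0 ± 8.72), and no other member passed 25 CPM. Among these were Lamb1 (24.8 ± 6.29), Itgb7 (15.8 ± 3.28), Itga6 (14.5 ± 6.88), Col8a1 (10.2 ± 4.15), the laminin chain Lamc1 (9.71 ± 4.54), Col4a1 (9.36 ± 3.57) and Col3a1 (8.18 ± 4.15). From Itgb7 down to Col3a1 the mean of each gene named differed from the next by less than the SD of the higher gene. In cells measured in bulk, fewer cells that use a gene and less RNA per cell cannot be told apart.

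**Figure D1:**
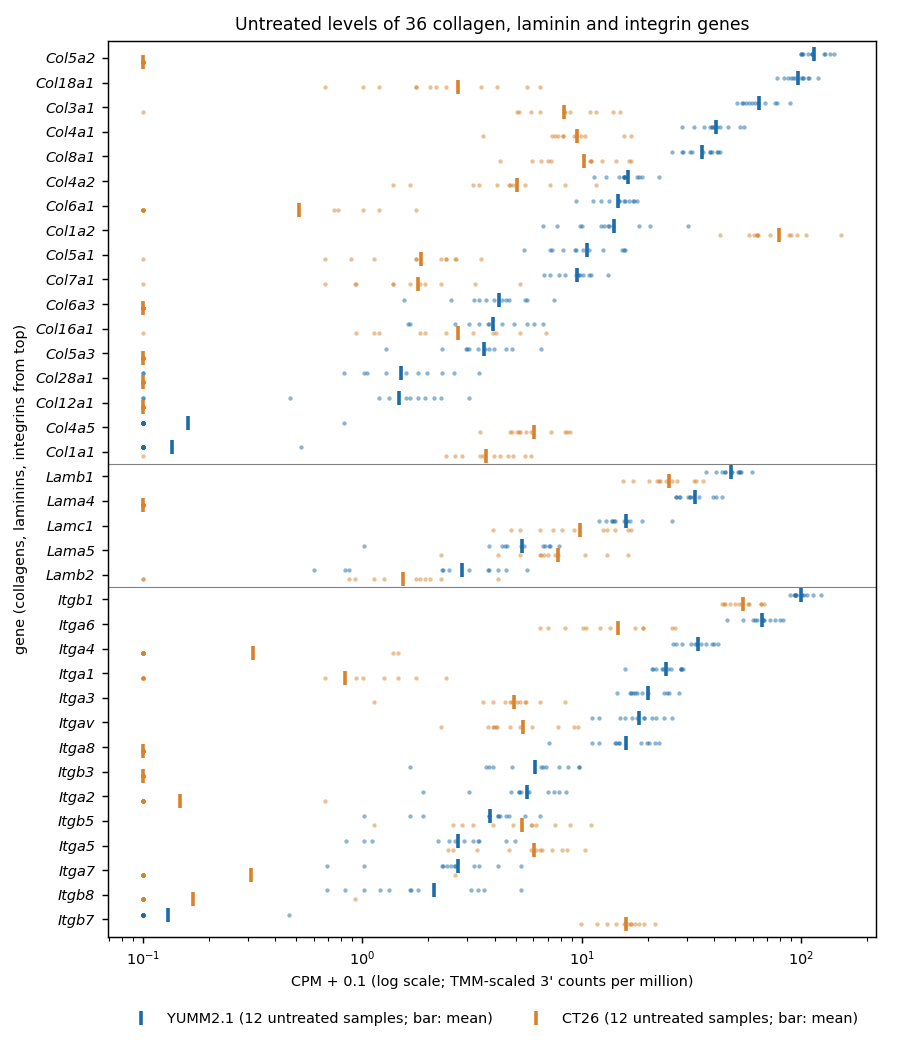
CPM plus 0.1 on a log axis for all but 1 of the 37 members, in 12 untreated samples of YUMM2.1 (blue) and 12 of CT26 (orange); small points are samples, vertical bars are means, and points at the left edge are samples with no count. Most genes lie further right in YUMM2.1, while Col1a2, Itgb7, Col4a5 and Col1a1 lie further right in CT26.

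Of the 31 members tested in both lines together, 29 differed between the untreated lines, 24 higher in YUMM2.1 and 5 higher in CT26 (edgeR's quasi-likelihood test, adjusted p below 0.05). The lines differed in most genes: 69% of all 10339 tested genes were called, and 41.2% were called higher in YUMM2.1. The median log2 difference (YUMM2.1 less CT26) was 2.14 over the 31 members and 0.20 over all tested genes. Members such as Col5a2 (9259 counts in YUMM2.1, 4 in CT26) and Itgb7 (7 and 964) met the minimum and filter only through 1 line. Their line difference was largely fixed in advance, so these calls and this median only describe the samples. The 2 members not called were Lama5 (log2 difference -0.33, SE 0.25) and Itgb5 (-0.43, SE 0.33). Col16a1 and Lamb2 passed narrowly (adjusted p = 0.0300 and 0.0463 by edgeR's quasi-likelihood test), and their calls were lost in some alternatives.

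There were 8 members with counts in untreated YUMM2.1 samples and with no count in any of the 12 untreated CT26 samples, so their folds are lower bounds against 3 counts over the group. Col5a2 was at least 588-fold higher than in CT26. Lama4 (26.8 to 43.5 CPM) was at least 169-fold higher, and Itga8, the alpha subunit of a nephronectin receptor (6.96 to 22.3 CPM), at least 83.4-fold higher. Itgb3, the beta subunit of the vitronectin receptor, was at least 30.4-fold higher, and the bounds for Col6a3, Col5a3, Col28a1 and Col12a1 lay between 6.73 and 20.0. Itga4 had 3 counts in CT26 against 836 in YUMM2.1, a ratio of 170.4 with a 95% counting interval of 58.1 to 828. Col18a1 was 37.4-fold higher in YUMM2.1 by pooled counts (95% counting interval 27.3 to 52.8). These bounds and intervals cover counting error only.

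The genes higher in CT26 were of other kinds. Itgb7, which in lymphocytes pairs with Itga4 or Itgae, had between 9.79 and 21.5 CPM in the untreated CT26 samples and 1 count in all untreated YUMM2.1 samples (pooled ratio 384, 95% counting interval 68.3 to 15243). Its known partners were nearly absent from CT26: over all 45 samples Itgb7 had 964 counts, Itga4 had 10 and Itgae 6. Of the leukocyte markers in CT26, 2 of 6 reached a mean of 1 CPM, and the summed list lay between 1.54 and 7.48 CPM in the untreated samples. Col4a5, an X-linked basement membrane collagen, lay at 5.97 ± 1.74 CPM in CT26 and had 2 counts in YUMM2.1, while Col4a3 and Col4a4, chains of the same trimer, had 4 and 0 counts in all 45 CT26 samples. Itga5, the alpha subunit of the fibronectin receptor, was 5.94 ± 2.44 CPM in CT26 cells and 2.62 ± 1.31 CPM in YUMM2.1 cells (log2 difference -1.09, SE 0.27, adjusted p = 2.93e-04 by edgeR's quasi-likelihood test).

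Chains that assemble into 1 protein had unequal counts in several cases. Type I collagen is a trimer of 2 alpha-1 chains and 1 alpha-2 chain, yet Col1a1 had 158 counts against 4227 for Col1a2 in the 45 CT26 samples, and 4 against 1149 in YUMM2.1. Type VI collagen needs Col6a1, Col6a2 and a longer chain such as Col6a3, and these had 869, 65 and 351 counts in YUMM2.1. The pair Col4a1 and Col4a2, which share a promoter region and assemble together, stood at 40.9 and 16.1 CPM in untreated YUMM2.1 cells, and at 9.36 and 4.95 CPM in untreated CT26 cells. Whether this pair departs from the numbers of its chains in the trimer was not tested. How completely the 3′ end of each transcript was counted was not tested. Of the 37 members, Itga1 shares bases of its last exon with another annotated gene on the same strand, and Itga4, Itga7 and Itgav with a gene on the other strand, and the strand used in counting is not given in the sources used here.

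**Figure D2:**
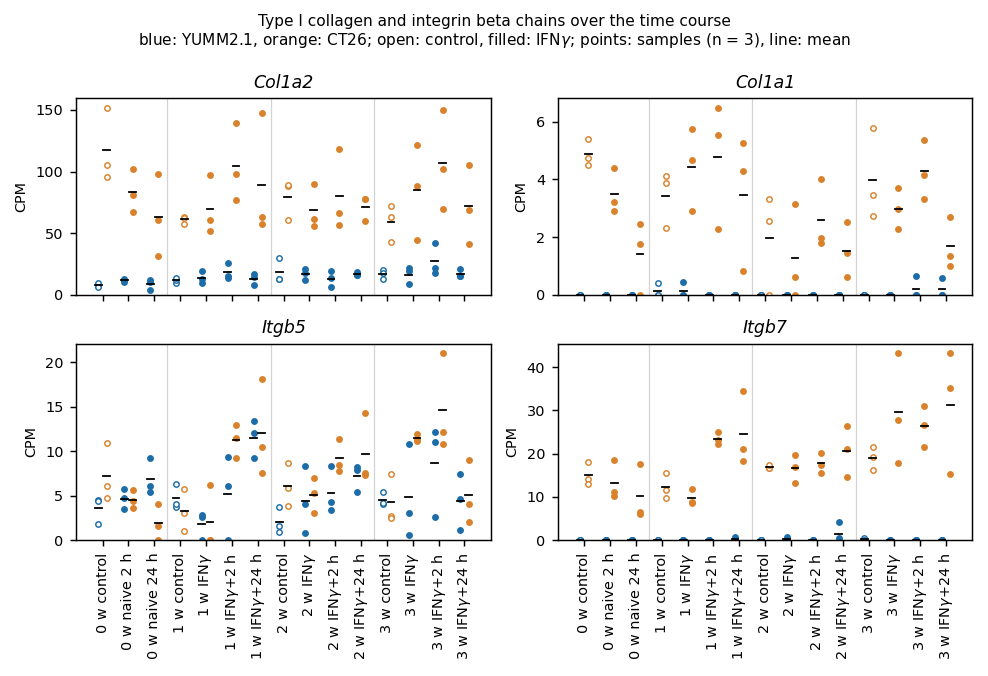
CPM of Col1a2, Col1a1, Itgb5 and Itgb7 in each of the 15 groups of YUMM2.1 (blue) and CT26 (orange), from the 0-week control to 3 weeks of IFNγ with 24 h rechallenge; points are samples (n = 3), black lines are means, and control samples are open. Col1a2 lies above Col1a1 in both lines, and Itgb7 is seen in every CT26 sample and is at 0 in most YUMM2.1 samples.

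The next comparisons asked whether IFNγ changed these genes. Of the members, 28 passed the filter on low counts in YUMM2.1 and 17 in CT26, so the other 9 and 20 have no test in that line. In YUMM2.1, edgeR's quasi-likelihood test called 0 of 28 members after 2 h of IFNγ in naive cells (0.24% of all genes tested were called) and 0 after 24 h (0.886%). It called 0 at 1 week against the control of that week (0.73%), 0 at 2 weeks (1.12%) and 0 at 3 weeks (0.97%). Members with an unadjusted p under 0.05 numbered 0, 1, 0, 2 and 1 in these 5 comparisons. In CT26, it called 0 of 17 members after 2 h in naive cells (0.235% of all genes), 0 after 24 h (2.04%), 0 at 1 week (0.728%), 0 at 2 weeks (1.67%) and 0 at 3 weeks (7.23%), with 1, 3, 2, 0 and 8 members at an unadjusted p under 0.05. The shares of all CT26 genes at that unadjusted p were 3.64%, 11.4%, 7.33%, 10.2% and 22.1%. In YUMM2.1 the shares were 3.63% and 7.02% in naive cells at 2 h and 24 h, 5.94% at 1 week and 7.19% at 2 weeks. The YUMM2.1 share at 3 weeks was higher than these. DESeq2 called 0 members in all 10, but it gave no adjusted p for some members, at most 7 of 28 in YUMM2.1 and 11 of 17 in CT26.

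Chronic exposure was then averaged over the 3 weeks, with the 9 samples of 1, 2 and 3 weeks of IFNγ without rechallenge set against the 9 controls of the same weeks. In YUMM2.1, 1 of 28 members was called by edgeR's quasi-likelihood test, Col6a1, which fell; 2.95% of all genes were called. In CT26, 3 of 17 members rose and 0 fell, namely Itga3, Itga6 and Lamc1, against 8.14% of all genes called and 3.43% called higher. The median log2 fold change was 0.07 over the members in YUMM2.1 and 0.35 in CT26, beside 0.01 over all genes in both lines, and 16 of 28 and 15 of 17 members lay above 0.

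Itga3 codes for the alpha-3 subunit, which with beta-1 binds laminins. In CT26 control samples Itga3 held 1.03, 5.41 and 3.45 CPM at 1 week, 8.31, 3.82 and 4.34 at 2 weeks, and 5.47, 4.96 and 4.60 at 3 weeks. In chronic IFNγ samples it held 8.57, 5.76 and 8.71 CPM at 1 week, 6.04, 7.36 and 10.8 at 2 weeks, and 15.8, 13.7 and 2.98 at 3 weeks. The samples overlapped, with 5 of 9 chronic samples above all 9 controls, and the lowest chronic sample was the shallow 3-week replicate 3, in which Itga3 had 1 count. The log2 fold change was 1.09 (SE 0.31, adjusted p = 0.0195 by edgeR's quasi-likelihood test). In YUMM2.1 the same contrast for Itga3 gave 0.46 (SE 0.22, adjusted p = 0.35 by edgeR's quasi-likelihood test).

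Itga6 codes for the alpha-6 subunit of laminin receptors. In CT26 controls it held 10.3, 10.0 and 6.91 CPM at 1 week, 13.3, 6.37 and 11.9 at 2 weeks and 17.3, 8.27 and 19.0 at 3 weeks. In chronic samples it held 21.0, 11.5 and 11.6 CPM at 1 week, 18.1, 14.7 and 21.0 at 2 weeks and 26.9, 55.8 and 8.95 at 3 weeks. The log2 fold change of Itga6 was 1.03 (SE 0.30, adjusted p = 0.0242 by edgeR's quasi-likelihood test), and 4 of 9 chronic samples lay above all controls. The 0-week controls of CT26, which are not in this contrast, held Itga6 at 18.9, 25.7 and 26.3 CPM, as high as most chronic samples.

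Lamc1 codes for the gamma-1 chain found in most laminins. In CT26 controls it held 5.15, 4.63 and 6.33 CPM at 1 week, 9.14, 3.82 and 14.1 at 2 weeks and 7.29, 12.4 and 8.05 at 3 weeks. In chronic samples it held 21.0, 7.20 and 8.71 CPM at 1 week, 17.1, 11.6 and 15.9 at 2 weeks and 10.2, 15.9 and 8.95 at 3 weeks. The log2 fold change of Lamc1 was 0.92 (SE 0.28, adjusted p = 0.0335 by edgeR's quasi-likelihood test), with 4 of 9 chronic samples above all controls. Here too the 0-week controls, at 16.6, 16.2 and 12.9 CPM, lay among the chronic samples. In CT26 the median log2 change of the members from the 0-week to the 3-week control was -0.59, beside 0 over all genes.

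Libraries stood apart within the CT26 result. Replicate 2 at 3 weeks of IFNγ, with 773942 counts, held the 14 integrin genes at a sum of 313 CPM, against 107 CPM in the lowest of the 3 samples of that group and 106 to 126 CPM in the 3-week controls. Itgb1 was 169 CPM in that sample and 46.4 and 53.7 CPM in the other two of its group. When 1 replicate number was left out of every group, the 3 CT26 calls went to 0 without replicate 1, 0 without replicate 2 and 1 (Itga6, adjusted p = 0.0386 by edgeR's quasi-likelihood test) without replicate 3, while the log2 fold changes of Itga3, Itga6 and Lamc1 stayed between 0.65 and 1.25. Without the shallow libraries all 3 calls held. At 3 weeks alone, 8 of 17 members had an unadjusted p under 0.05 in CT26, against 22.1% of all genes, and the members' median log2 fold change was 0.82. Without the shallow libraries 4 of them were called at 3 weeks (Itga3, Itga6, Itgb1 and Itgb7). That setting drops replicate 3 at 3 weeks of IFNγ, so these calls rest on replicate 1 and on replicate 2, the library that stood apart.

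Col6a1 codes for the alpha-1 chain of type VI collagen. In YUMM2.1 controls it held 17.8, 13.2 and 14.7 CPM at 1 week, 11.1, 15.6 and 9.28 at 2 weeks and 17.1, 16.3 and 12.1 at 3 weeks. In chronic samples it held 7.88, 11.2 and 9.15 CPM at 1 week, 5.35, 8.01 and 5.37 at 2 weeks and 14.6, 1.80 and 11.99 at 3 weeks. At 1 and 2 weeks each chronic sample lay below every control of its week, and at 3 weeks the groups overlapped. The log2 fold change was -0.75 (SE 0.21, adjusted p = 0.0339 by edgeR's quasi-likelihood test). The call was lost when any 1 replicate number was left out (adjusted p between 0.136 and 0.222 by edgeR's quasi-likelihood test), with library totals as the only scaling (0.0704), without the filter on low counts (0.0803) and in a fit of the compared groups alone (0.0717). The fibroblast markers summed to between 1.55 and 5.93 CPM in these 9 controls and between 0.51 and 3.00 CPM in the 9 chronic samples. Their part in the result was not tested. In CT26 Col6a1 had 15 counts over 45 samples and was not tested.

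**Figure D3:**
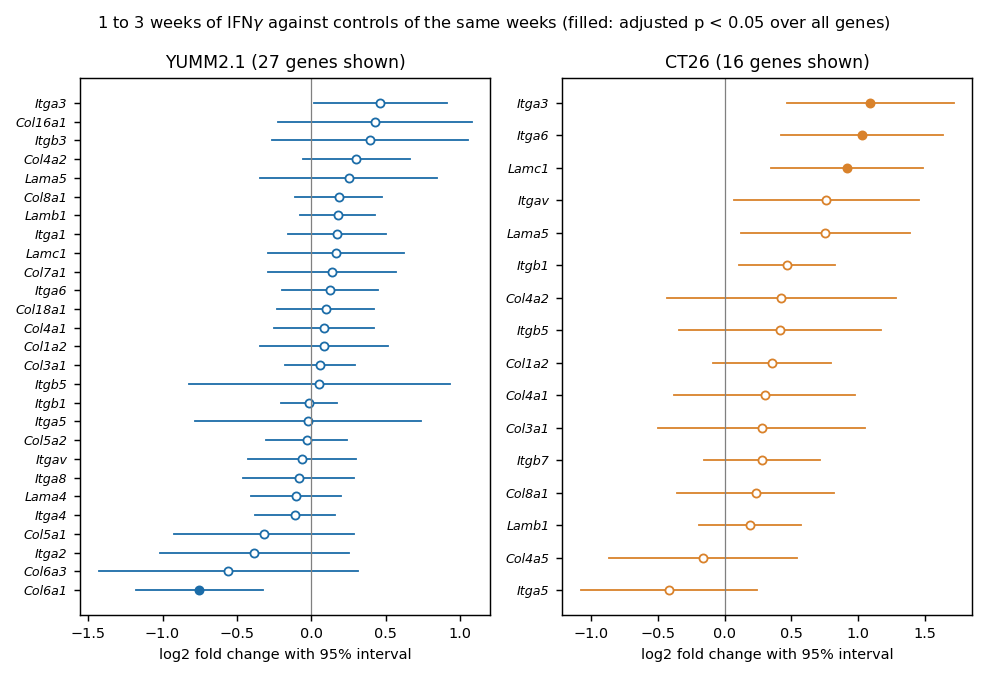
Log2 fold changes of chronic IFNγ (9 samples) against the controls of the same weeks (9 samples), with 95% intervals, for all but 1 of the 28 members tested in YUMM2.1 (left) and of the 17 in CT26 (right); filled points passed an adjusted p of 0.05. Itga3, Itga6 and Lamc1 are filled in CT26, and Col6a1, at the bottom, is filled in YUMM2.1.

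The difference between the lines in the chronic effect was tested as an interaction, and 0 of 31 members passed by edgeR's quasi-likelihood test (0.184% of all genes passed; 0 by DESeq2, which gave no adjusted p for 22 of the members), with 7 members at an unadjusted p under 0.05. Of all genes, 6.91% had such an unadjusted p. For Itga6 the effect in YUMM2.1 less that in CT26 was -0.94 on the log2 scale, with a 95% interval of -1.63 to -0.26 and an adjusted p of 0.48 by edgeR's quasi-likelihood test. A difference between the lines in Itga3 was -0.66 (SE 0.40), and in Lamc1 -0.78 (SE 0.37). The calls in 1 line and not in the other therefore do not show that the lines differed.

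Rechallenge was averaged over 1, 2 and 3 weeks, with chronic cells given fresh IFNγ set against chronic cells of the same week without it. These comparisons share the unchallenged samples with the chronic average. At 2 h, 1 of 28 members was called in YUMM2.1, Itga5, which rose, against 2.82% of all genes called by edgeR's quasi-likelihood test. There 10 of the 28 had an unadjusted p under 0.05, against 15.2% of all genes, and 24 lay above 0. The median log2 fold change was 0.26 over these members, beside 0.01 over all genes. In CT26, 0 of 17 were called (0.986% of all genes; 0 by DESeq2), with 5 at an unadjusted p under 0.05. At 24 h, 0 members were called in YUMM2.1 (1.06% of all genes; 0 by DESeq2) and 0 in CT26 (1.34%; 0 by DESeq2), with 6 and 4 at an unadjusted p under 0.05. Over all genes, 11.4% had such a p at 2 h in CT26, and 7.84% and 8.08% at 24 h in YUMM2.1 and CT26. Without the 3-week samples, whose Gbp2 overlapped that of unchallenged cells, the 24 h average of 1 and 2 weeks also called 0 members in each line, with 7 in YUMM2.1 and 4 in CT26 at an unadjusted p under 0.05 (9.41% and 11.2% of all genes).

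Itga5 was a low gene in YUMM2.1. Without rechallenge it held 1.85, 1.53 and 1.83 CPM at 1 week, 1.19, 5.61 and 3.13 at 2 weeks and 1.68, 2.71 and 6.00 at 3 weeks. At 2 h it held 5.65, 6.61 and 4.57 CPM at 1 week, 6.38, 15.7 and 7.53 at 2 weeks and 12.2, 11.7 and 5.92 at 3 weeks. Each 2 h sample lay above each unchallenged sample of its week at 1 and 2 weeks, and at 3 weeks 1 unchallenged sample, the shallow replicate 3 with 2 counts, overlapped. The log2 fold change of Itga5 was 1.69 (SE 0.33, adjusted p = 7.29e-04 by edgeR's quasi-likelihood test), and the values for single weeks were 1.69, 1.54 and 1.85, with no week passing alone (adjusted p = 0.28, 0.38 and 0.14). Without replicate 1 of every group the adjusted p was 0.111, and without replicate 2 it was 0.0684. In CT26 the same contrast gave 0.99 for Itga5 (SE 0.31, adjusted p = 0.12 by edgeR's quasi-likelihood test). In naive cells 2 h of IFNγ gave -0.27 (SE 0.67) in YUMM2.1 and 0.09 (SE 0.54) in CT26.

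**Figure D4:**
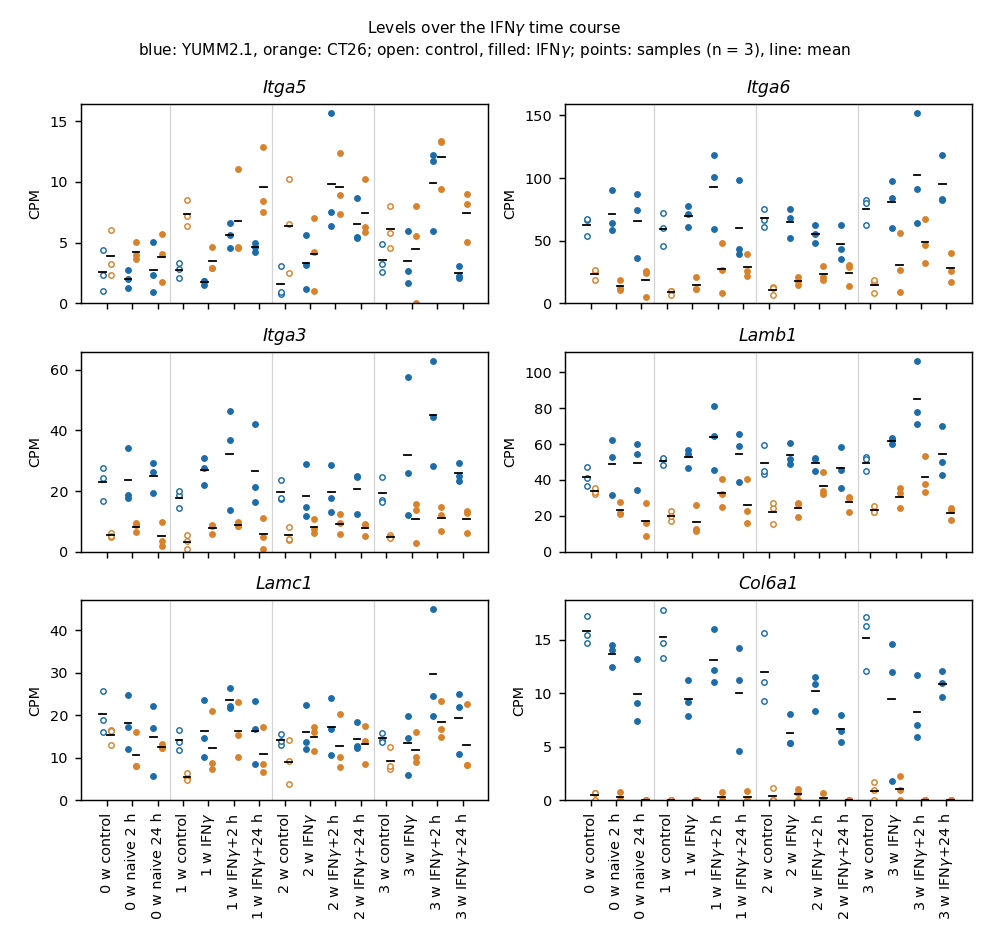
CPM of Itga5, Itga6, Itga3, Lamb1, Lamc1 and Col6a1 in each of the 15 groups of YUMM2.1 (blue) and CT26 (orange); points are samples (n = 3), black lines are means, and control samples are open. The mean of Itga5 in YUMM2.1 is higher at 2 h of rechallenge than in unchallenged chronic cells of the same week, and Itga6 in CT26 lies between 8.95 and 55.8 CPM at 3 weeks of IFNγ.

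Cells rechallenged for 2 h after 3 weeks were then compared with naive cells given their first IFNγ for 2 h. The groups differ in 3 weeks of culture as well as in 3 weeks of IFNγ, and the 3-week samples are also in the rechallenge comparison. In YUMM2.1, 7 of 28 members were higher in the 3-week cells and 0 lower by edgeR's quasi-likelihood test, against 8.1% of all genes called and 5.02% called higher. In CT26, 5 of 17 were higher and 0 lower, against 10.3% of all genes called and 4.29% called higher. The median log2 difference was 0.55 over the members in YUMM2.1 and 0.68 in CT26, beside 0.04 over all genes in both lines. Itga5 and Lamb1 were called in both lines.

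Itga5 held 12.2, 11.7 and 5.92 CPM in the 3-week YUMM2.1 samples and 1.24, 2.01 and 2.76 in naive ones (log2 difference 2.34, SE 0.55, adjusted p = 4.94e-03 by edgeR's quasi-likelihood test). The CT26 samples held 13.4, 13.3 and 9.42 CPM against 5.09, 4.01 and 3.67 (1.59, SE 0.49, adjusted p = 0.0282 by edgeR's quasi-likelihood test). In both lines all 3 samples of the 3-week group lay above all 3 naive ones. Lamb1, the beta-1 chain of laminins, held 77.6, 106.5 and 71.0 CPM against 52.9, 62.3 and 31.8 in YUMM2.1 (0.79, SE 0.21, adjusted p = 0.0131 by edgeR's quasi-likelihood test). In CT26 Lamb1 held 33.4, 53.2 and 37.7 CPM against 27.6, 21.7 and 21.3 (0.91, SE 0.29, adjusted p = 0.0332 by edgeR's quasi-likelihood test), and here too the groups did not overlap. The 0-week CT26 controls, which are not in this contrast, held Lamb1 at 32.4 to 35.3 CPM and overlapped the 3-week samples.

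The other 5 called in YUMM2.1 were the fibril collagens Col3a1 (log2 difference 0.71, SE 0.20) and Col1a2 (1.22, SE 0.36), Itgav and Itgb3, which together form the vitronectin receptor (0.98, SE 0.30, and 1.77, SE 0.58), and Col18a1 (0.83, SE 0.27). Col1a2 held 18.0, 42.5 and 21.7 CPM against 10.3, 12.7 and 12.4, and Itgav 26.3, 48.0 and 24.99 against 14.1, 20.8 and 15.9, in both cases without overlap. Col18a1, at 143, 276 and 106 CPM against 74.8, 150.0 and 71.2, and Col3a1 and Itgb3 overlapped between the groups. Replicate 2 of the 3-week group was the highest for Lamb1, Col1a2, Col3a1, Col18a1, Itgav and Itgb3, and it held the 17 collagens at a sum of 996 CPM, the highest of the group, whose lowest sample held 458 CPM. The number called fell from 7 to 0 without replicate 1, 0 without replicate 2 and 4 without replicate 3 of every group, and to 0 in a fit of the 2 compared groups alone, in which Itga5 did not pass the filter on low counts and the other 6 had adjusted p between 0.0785 and 0.161 by edgeR's quasi-likelihood test.

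The other 3 called in CT26 were all integrin subunits. Itga6 held 46.7, 67.6 and 32.3 CPM in the 3-week samples and 12.4, 10.4 and 19.1 in naive ones (log2 difference 1.91, SE 0.44, adjusted p = 2.39e-03 by edgeR's quasi-likelihood test). Itgb5, a beta subunit that pairs with alpha-v, held 10.8, 21.1 and 12.1 CPM against 3.63, 5.62 and 4.40 (1.77, SE 0.53), and Itgb7 held 26.7, 31.0 and 21.5 against 10.2, 18.5 and 11.0 (1.12, SE 0.34). In these 3 genes the groups did not overlap. The 0-week CT26 controls overlapped the 3-week samples in Itgb5 (4.73 to 10.9 CPM) and lay below them in Itga6 and Itgb7. From those controls to naive cells at 2 h, the median log2 change of the CT26 members was -0.22, beside 0.001 over all genes. Without replicate 1, 2 or 3 of every group, the number called in CT26 went from 5 to 0, 2 and 2; Itga6 kept its call without replicate 2 and without replicate 3.

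**Figure D5:**
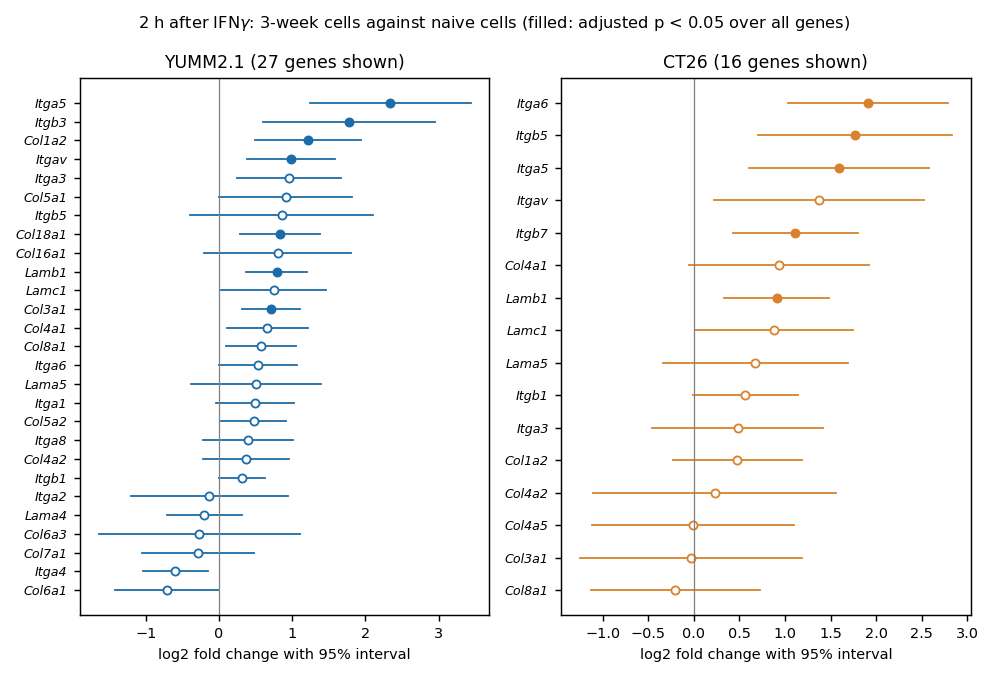
Log2 differences between 3-week chronic cells after 2 h of rechallenge (3 samples) and naive cells after 2 h of IFNγ (3 samples), with 95% intervals, for all but 1 of the 28 members tested in YUMM2.1 (left) and of the 17 in CT26 (right); filled points passed an adjusted p of 0.05. All filled points lie to the right of 0, 7 in YUMM2.1 and 5 in CT26.

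Whether these differences belonged to the 2 h response itself was tested as the 2 h change in 3-week cells less that in naive cells. By edgeR's quasi-likelihood test 0 of 28 members passed in YUMM2.1 (0.115% of all genes) and 0 of 17 in CT26 (0.211%), with 2 members in each line at an unadjusted p under 0.05 and 0 called by DESeq2, which gave no adjusted p for 18 members in YUMM2.1 and 11 in CT26. That unadjusted p was reached by 6.76% of all genes in YUMM2.1 and 5.44% in CT26. For Itga5 the difference of the 2 h changes was 2.12 (SE 0.91, adjusted p = 0.71 by edgeR's quasi-likelihood test) in YUMM2.1 and 1.01 (SE 0.77, adjusted p = 0.97 by edgeR's quasi-likelihood test) in CT26. At 24 h, the comparison of 3-week with naive cells rests wholly on the libraries labelled 3 weeks with 24 h of rechallenge, whose Gbp2 overlapped that of unchallenged cells. It called 0 of 28 members in YUMM2.1 (0.813% of all genes, and 0 by DESeq2, with no adjusted p for 17), with 2 at an unadjusted p under 0.05 (9.4% of all genes). In CT26 it called 1 of 17 (2.48% of all genes), Itgb7, at 35.3, 15.2 and 43.3 CPM against 6.09, 17.6 and 6.53 (log2 difference 1.74, SE 0.39, adjusted p = 9.13e-03 by edgeR's quasi-likelihood test). The groups overlapped, DESeq2 gave no adjusted p for Itgb7, and the log2 difference lay between 0.97 and 2.68 in the alternatives that gave a test. The call was lost without replicate 1 or replicate 3 of every group and in a fit of the compared groups alone.

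Culture without IFNγ was the last comparison, between the 3-week and the 0-week controls. Of the members, 0 of 28 passed in YUMM2.1 (0.521% of all genes called by edgeR's quasi-likelihood test; 0 by DESeq2, with no adjusted p for 17) and 0 of 17 in CT26 (0.916%; 0 by DESeq2, with no adjusted p for 12), with 2 and 4 at an unadjusted p under 0.05. The all-gene share at that level was 8.33% for YUMM2.1 and 12% for CT26. Col1a2 went in opposite directions: it held 7.57, 9.94 and 6.53 CPM at 0 weeks and 20.3, 13.03 and 18.1 at 3 weeks in YUMM2.1, and 95.5, 152 and 105 CPM at 0 weeks and 62.9, 71.9 and 42.6 at 3 weeks in CT26. Col1a2 is named here because its samples of 0 and 3 weeks did not overlap in either line and went opposite ways. The adjusted p of Col1a2 was 0.28 in YUMM2.1 and 0.14 in CT26 by edgeR's quasi-likelihood test. The summed leukocyte markers, of which only Cd68 reached a mean of 1 CPM in untreated YUMM2.1 (6.40 CPM) and Cd3e had no count, also stood apart there, with 3.53 to 6.63 CPM at 0 weeks and 8.33 to 17.9 at 3 weeks. In CT26 they overlapped, at 2.03 to 3.86 and 3.31 to 5.75 CPM. Their part in the result was not tested.

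Genes that build, bind or cut the matrix were counted from 4 lists. In the chronic average 6 of their 100 tested genes passed in YUMM2.1, beside 2.95% of all genes, and 7 of 79 in CT26, beside 8.14% of all genes. Of the tested genes that process collagen, 1 of 20 passed in the YUMM2.1 chronic average and 2 of 18 in CT26, all lower: Sparc, a collagen-binding matricellular protein, fell in YUMM2.1 (log2 fold change -0.44, SE 0.08) and in CT26 (-0.50, SE 0.11), and Loxl2, which cross-links collagen, fell in CT26 (-0.26, SE 0.07). Of the other matrix glycoproteins, Thbs1 (thrombospondin-1) rose in YUMM2.1 (0.83, SE 0.19; 1 of 21 called), and fibronectin, Fn1 (-0.26, SE 0.06), and osteopontin, Spp1 (-0.25, SE 0.07), fell in CT26 (2 of 16 called). Of the proteases and inhibitors, the urokinase receptor Plaur (0.58, SE 0.09) and Mmp19 (0.64, SE 0.17) rose and Mmp10 (-0.42, SE 0.12) fell in YUMM2.1 (3 of 25), and cathepsin L, Ctsl (-0.30, SE 0.06), and Timp1 (-0.35, SE 0.09) fell in CT26 (2 of 12). Of the adaptors and focal adhesion genes, Enah fell in YUMM2.1 (-0.33, SE 0.08; 1 of 34) and Cd9 in CT26 (-0.25, SE 0.07; 1 of 33). The medians of the 4 lists lay between -0.12 and 0.13 in YUMM2.1 and between -0.03 and 0.06 in CT26.

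At 2 h of rechallenge, in the comparison that called Itga5, 7 of the 100 tested genes of the 4 lists rose in YUMM2.1 and 0 fell by edgeR's quasi-likelihood test, beside 1.94% of all genes called higher. Among them were Ccn1, which codes for a matricellular protein that binds integrins (1.29 on the log2 scale, SE 0.12), Plaur (0.70, SE 0.09), Zyx, which codes for the focal adhesion protein zyxin (0.86, SE 0.17), Thbs1 (0.86, SE 0.17), Mmp14 (0.36, SE 0.10) and Plod3 (0.50, SE 0.14). In CT26, Ccn1 (0.85, SE 0.14) and Thbs1 (1.23, SE 0.31) rose and 0 fell of 79 tested, beside 0.798% of all genes called higher.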

How the data were processed

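RNA of 90 samples, 15 groups of 3 in each of 2 lines, was counted by 3′ digital gene expression. The authors deposited raw counts per gene in 1 table, and their processing notes name Salmon 0.13.1 and the build mm10; the paper names tximport, and the aligner, annotation and handling of molecular identifiers are not given in the sources used here. The study left out outlier samples, most of them of CT26, without naming them, and all 90 were kept here.

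Groups and replicate numbers came from the sample labels, which speak only of triplicate experiments, so p-values measure the spread between these samples, which may be technical. No sample columns were identical. Gene identifiers were paired with symbols through the GENCODE vM21 annotation (53668 of 53697 matched). The members and the gene lists were chosen with earlier results of these data known.

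Counts were filtered by expression within groups and scaled by TMM, and edgeR 4.0.16 (R 4.3.3, limma 3.58.1) fitted its quasi-likelihood test to the 15 groups of a line, or to the 30 groups of both lines for untreated levels and for differences between lines. P-values were adjusted by Benjamini and Hochberg over all genes tested in the fit, with a threshold of 0.05. CPM came from 1 scaling of all 90 samples. Lower bounds took 3 counts over a group in place of 0, and counting intervals have a level of 95%. The code was tested on simulated data. Some genes are not reported here by name, and the counts include them. Named members had an adjusted p below 0.05 in a comparison or were among the 10 with the highest mean CPM in the untreated samples of a line; partner genes were named where they passed in the chronic average. Members named for counts at or near 0, those not or narrowly called between the untreated lines (Lama5, Itgb5, Col16a1, Lamb2), chains named beside a partner (Col4a2, Col6a2, Col4a3, Col4a4, Itgae), partner genes at 2 h of rechallenge, the differences of the 2 h response, the single-week rechallenge values, the 24 h average of 1 and 2 weeks and the line differences in naive cells and in control culture were chosen after the values were seen.

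Alternatives were DESeq2 1.42.0, library totals in place of TMM, no filter on low counts, a replicate block, leaving out shallow libraries (under 25% of the line's median total), each replicate number in turn, or the groups not compared, and a count minimum of 450. With 3 samples per group and totals from 274719 counts, low genes such as Itga5 rest on few counts per sample.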

Additional observations from a re-analysis of the deposited data

Results flagged for a closer look

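Itgb5 and Col1a2 were picked because, in a comparison, their samples did not overlap in either line and went opposite ways in the lines. Their lack of overlap, their directions and the tests of the line difference therefore only describe these samples. Itgb5 went in opposite directions in the lines after 24 h of IFNγ in naive cells. Its log2 fold change was 0.94 in YUMM2.1, where all 3 treated samples (6.03, 9.26 and 5.42 CPM) lay above the 0-week controls (4.54, 4.42 and 1.78 CPM), and -1.97 in CT26, where all 3 treated samples (4.06, 0 and 1.63 CPM) lay below them (4.73, 6.08 and 10.9 CPM). The difference between the lines, tested as an interaction, was 2.88 on the log2 scale (SE 1.07) and did not pass (adjusted p = 0.56 by edgeR's quasi-likelihood test). The adjusted p lay between 0.389 and 0.924 in the 7 alternatives that gave one. DESeq2 and the fit of the compared groups alone gave none for Itgb5.

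Col1a2 went in opposite directions between the 0-week and 3-week controls, with a value of 1.13 on the log2 scale in YUMM2.1 cells against a value of -1.07 in CT26 cells, and the weeks did not overlap in either line. The difference between the lines was 2.23 (SE 0.57, adjusted p = 0.0758 by edgeR's quasi-likelihood test). It passed with DESeq2 (adjusted p = 0.0216), which gave no adjusted p for 26 of the 31 members. With edgeR's quasi-likelihood test it passed without the filter on low counts (1.28e-05) and without replicate 2 (0.0353). It also passed when only the compared groups were fitted (0.00620), and it did not pass in the other 5 alternatives.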

How the results depend on the processing

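No called member changed sign in any alternative that gave a value, nor did the line differences of Itgb5 and Col1a2 above. The signs of other named values were not compared between alternatives. The number of members called in the YUMM2.1 chronic average went from 1 to 0 with library totals only, without the filter on low counts and with only the compared groups (0 to 0 with a replicate number left out). At 2 h of rechallenge in YUMM2.1 it went from 1 to 2 without the filter and to 0 for each week alone (0 to 2 with a replicate left out), and at 24 h from 0 to 1 for 1 week alone. Against naive cells at 2 h it went from 7 to 0 in YUMM2.1 with only the compared groups, where 5 of the 28 members, Itga5 among them, did not pass the filter (0 to 4 with a replicate left out). In CT26 it went from 0 to 1 without the filter in naive cells at 24 h, and at 3 weeks from 0 to 2 with library totals only, 4 without the filter, 4 without shallow libraries and 1 with only the compared groups (0 to 1 with a replicate left out). With a replicate left out, the CT26 chronic average gave 0 to 1, the comparison with naive cells at 2 h gave 0 to 2, and that at 24 h gave 0 to 1. At 2 h of rechallenge in CT26 it went from 0 to 1 without the filter (0 to 3 with a replicate left out), and in control culture from 0 to 1 without the filter and with only the compared groups. Against naive cells at 24 h in CT26 it went from 1 to 0 with only the compared groups, and to 0 with DESeq2, which gave no adjusted p for 13 of the 17 members, Itgb7 among them. Why these counts moved was not tested. Between the untreated lines, 26 to 33 members were called in the alternatives, against 29.

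Samples with the same replicate number did not deviate together: in no comparison was every pair's correlation over 0.1, and the median correlation over genes was 0.00069 for the same number and 0.0025 for different numbers in YUMM2.1, and 0.0050 and -0.0030 in CT26. With the replicate number as a block, 1, 1 and 6 members were called in the YUMM2.1 chronic average, at 2 h of rechallenge and against naive cells at 2 h, and 3, 5 and 1 in the CT26 chronic average and against naive cells at 2 h and 24 h. Itgb3 was the call lost (adjusted p = 0.0506 by edgeR's quasi-likelihood test with the block). A count minimum of 450 left 27 members. Depth limits the low genes: Itga5 had between 1 and 7 counts in the unchallenged chronic YUMM2.1 samples.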
